A study of Mus musculus with 12 samples.

Results

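A set of 10 genes named for dendritic cells was followed across mT3-2D pancreatic tumours and the cultured line they were grown from. They were the rows of the log2 table whose symbols are Itgax, Flt3, Xcr1, Cd209e, Cd207, Ccl17, Ccl22, Ccr7, Cd83 and Lamp3, and all 10 were found among the 750 genes measured. Transcripts were counted in total RNA on the NanoString nCounter system, in which barcoded probes are hybridised to each transcript and counted without amplification. The 12 samples were 5 subcutaneous mT3-2D tumours from SCID (immunodeficient) hosts, 5 subcutaneous mT3-2D tumours from WT (immunocompetent) hosts and 2 samples of the mT3-2D line in culture, and every tumour was grown from that same line. The line is a murine KPC line, KPC being a genetically engineered mouse model of pancreatic cancer. Mature lymphocytes of the T and B lineages are missing in SCID mice, which keep myeloid cells and can form dendritic cells. The sources used here do not give the hosts' strain, sex or age, the time after implantation, or whether the line is 1 clone.

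Dendritic cells take up antigen in tissue, mature on danger or cytokine signals, and carry the antigen to lymph nodes, where they prime T cells. Conventional dendritic cells depend on the cytokine receptor Flt3, and their cross-presenting subset carries the chemokine receptor Xcr1. On maturation they induce Ccr7, which guides them to lymph nodes, the costimulatory surface molecule Cd83 and, in a mature state, the chemokines Ccl17 and Ccl22, which attract T cells through the receptor Ccr4. Several of these genes are shared with other cells: macrophages express Itgax and can make Ccl17 and Ccl22, and activated lymphocytes can express Ccr7 and Cd83.

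Of the list, 5 genes gave clear signal in tumours. Values are log2 of counts normalized by the authors, and a sample's background level is the log2 value of 35.1 probe counts in it, the 95th percentile over 22 lymphocyte genes measured in the line, a culture without lymphocytes. The median of those genes was 15 counts, and 2 T cell genes and 0 B cell genes passed the level in a line sample. If the line's own cells express those 2, the level is set high. Itgax, Ccl17, Ccl22, Ccr7 and Cd83 were above background in at least 50% of the tumours, and Flt3, Xcr1, Cd209e, Cd207 and Lamp3, the other 5, were not. Of these, Xcr1, Cd209e and Lamp3 were at background in every tumour. In the line Ccl17 was the 1 member above background. The label thus rests on 5 genes that other cells can also express, while the genes that define conventional dendritic cells and their cross-presenting subset, and Lamp3 among those of maturation, were at or near background.

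**Figure D1:**
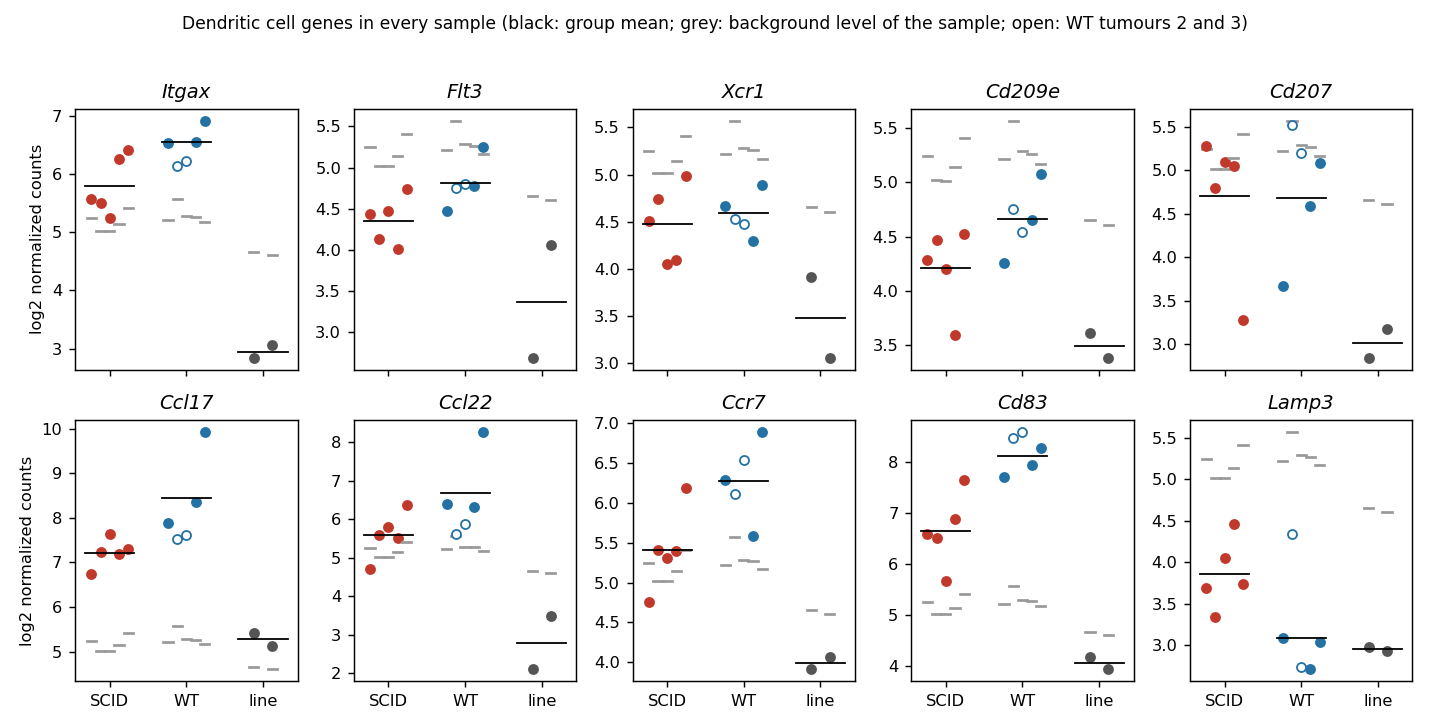
Log2 normalized counts of the 10 dendritic cell genes in SCID tumours (red), WT tumours (blue) and the mT3-2D line (grey points); black bars are group means, grey dashes each sample's background level, and open points WT tumours 2 and 3, which count as 1 sample. Cd83 is the 1 gene whose SCID and WT points do not overlap, and Xcr1, Cd209e and Lamp3 lie below background in every sample.

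Each sample held between 368925 and 558445 probe counts. The counts of WT tumours 2 and 3 were nearly those of 1 library (chi-square over degrees of freedom 1.20, where the remaining 19 within-host tumour pairs gave 17.1 to 84.5). Their mean was therefore taken as 1 sample, which left n = 5 SCID tumours, n = 4 WT tumours and n = 2 line samples. The titles also carry a number in brackets whose meaning they do not state: WT tumours 3, 4 and 5 share 1 such number, SCID tumours 1 and 2 share another and SCID tumours 3 and 4 yet another, while WT tumours 2 and 3 carry different ones. If a shared number marks a shared animal or cage, those tumours are not independent and the p-values are too small. No label names the animal of a tumour, and the p-values cover only the spread among these samples, part of which may be technical. With that number as a random block and WT tumours 2 and 3 kept apart, Cd83 was the 1 member called lower (-1.53, limma adjusted p = 0.00888). That fit counts the nearly identical pair as 2 samples in different blocks, so its p-value may be too small as well. The host groups were tested against each other with limma over all 750 genes with Benjamini-Hochberg adjustment, and a gene was called at an adjusted p under 0.05. Over the 750 genes the median SCID minus WT difference was -0.33 on the log2 scale. Over 9 pan-leukocyte genes (Ptprc, Cd53, Cd37, Cd48, Itgb2, Itgal, Ikzf1, Lcp1 and Selplg) it was -0.82. Of these, 3 of the 9 were called lower (Ptprc, Cd37 and Ikzf1). In bulk tumour RNA, fewer cells of a type and less RNA per cell cannot be told apart.

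In SCID tumours 1 of the 10 dendritic cell genes was called lower, 0 were called higher and 9 were not called, where 15.7% of all 750 genes were called lower and 0.133% higher. The gene called was Cd83. At an unadjusted limma p under 0.05 in either direction, 6 members passed, where 31.7% of all genes did. Lamp3, at background in every tumour, was 1 of the 6 and was higher in SCID tumours. The point estimate was below 0 for 8 of the 10 members, as it was for 81.9% of all genes, and the median difference of the members was -0.61 on the log2 scale. The same direction in 8 of 10 members is therefore close to what the whole panel showed.

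**Figure D2:**
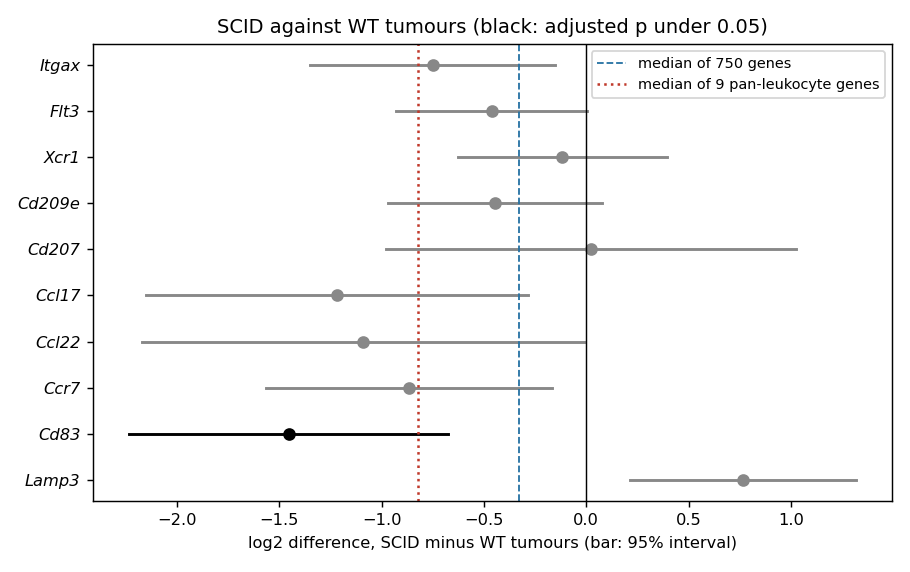
Difference in log2 level, SCID minus WT tumours, for each gene with its 95% interval from limma (5 SCID and 4 WT samples), black marking an adjusted p under 0.05. Cd83 at -1.45 is the 1 gene called, and the dashed and dotted lines mark the medians of all 750 genes (-0.33) and of 9 pan-leukocyte genes (-0.82).

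Cd83, a surface molecule induced on mature dendritic cells that stabilises MHC class II and costimulatory proteins, showed the largest difference among the members. Its log2 level was 6.59, 6.50, 5.66, 6.88 and 7.65 in SCID tumours 1 to 5, against 7.70, 8.47, 8.59, 7.93 and 8.27 in WT tumours 1 to 5. Every SCID tumour lay below every WT tumour, though SCID tumour 5 came within 0.1 of WT tumour 1, and 15.1% of all genes had groups that did not overlap in this direction. The mean was 6.65 ± 0.71 (SD, n = 5) in SCID tumours and 8.11 ± 0.37 (SD, n = 4) in WT tumours. Cd83 was 2.74-fold lower in SCID tumours (log2 difference -1.45, 95% interval -2.23 to -0.68, SE 0.35, limma adjusted p = 0.02). The call was lost without WT tumour 5 (adjusted p = 0.0635) and without the mean of WT tumours 2 and 3 (adjusted p = 0.0566). Scaling the samples on the 9 pan-leukocyte genes gave a difference of -0.65 (adjusted p = 0.14), and scaling to the median of all genes -0.85 (adjusted p = 0.068), so Cd83 was not called lower relative to either. An exact permutation test of the 126 splits gave an unadjusted p of 0.0159 for Cd83 (two-sided, smallest possible 0.00794) and an adjusted p of 0.096.

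Itgax encodes CD11c, the integrin alpha chain shared by dendritic cells and many tissue macrophages. Its log2 level was 5.57, 5.50, 5.24, 6.25 and 6.41 in SCID tumours, against 6.53, 6.14, 6.22, 6.56 and 6.92 in WT tumours. SCID tumours 1 to 3 were below all WT tumours, and SCID tumours 4 and 5 lay among them. The mean was 5.79 ± 0.51 (SD, n = 5) in SCID tumours and 6.55 ± 0.30 (SD, n = 4) in WT tumours, a difference of -0.75 (95% interval -1.35 to -0.15) that was not called (limma adjusted p = 0.0857). Without SCID tumour 5 it was called (-0.90, adjusted p = 0.0324). Scaled on the pan-leukocyte genes the difference turned to 0.058 (adjusted p = 0.872), so Itgax and general leukocyte genes differed between the hosts by nearly the same amount.

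Ccr7, the receptor that directs mature dendritic cells and naive T cells towards Ccl19 and Ccl21, had log2 levels of 4.76, 5.41, 5.31, 5.40 and 6.19 in SCID tumours, against 6.29, 6.11, 6.55, 5.59 and 6.89 in WT tumours. SCID tumour 5 lay above WT tumours 2 and 4, and the other SCID tumours lay below all WT tumours. The mean was 5.41 ± 0.51 (SD, n = 5) in SCID tumours and 6.28 ± 0.53 (SD, n = 4) in WT tumours, a difference of -0.86 (95% interval -1.56 to -0.17) that was not called (limma adjusted p = 0.088). It was called without SCID tumour 5 (adjusted p = 0.0282) and without WT tumour 4 (adjusted p = 0.0485). Of the 5 detected members, 4 had their highest SCID value in SCID tumour 5, the SCID tumour with the highest summed level of pan-leukocyte genes (1757 normalized counts, against 727 to 1212 in SCID tumours 1 to 4), and its part in these results was tested only by leaving it out.

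The chemokine genes Ccl17 and Ccl22 had similar profiles across tumours and shared their peak in WT tumour 5. Their highest SCID values fell in different tumours, SCID tumour 3 for Ccl17 and SCID tumour 5 for Ccl22. RefSeq places them on the same strand of mouse chromosome 8 (build GRCm38.p6), with starts 64769 bases apart. The 250 bases before each start are shown because these neighbouring genes had similar profiles and their promoters can be set side by side. Capitals mark matches on either strand to an NF-kappaB type motif (GGGNNNNNCC) or to the STAT palindromes TTCNNNGAA and TTCNNNNGAA, and no matches overlap.
Ccl17, chr8:94810203-94810452, plus strand: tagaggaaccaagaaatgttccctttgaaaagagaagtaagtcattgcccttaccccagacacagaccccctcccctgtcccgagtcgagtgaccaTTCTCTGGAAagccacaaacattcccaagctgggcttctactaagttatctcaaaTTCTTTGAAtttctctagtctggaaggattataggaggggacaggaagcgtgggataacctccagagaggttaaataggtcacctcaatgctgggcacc
Ccl22, chr8:94745434-94745683, plus strand: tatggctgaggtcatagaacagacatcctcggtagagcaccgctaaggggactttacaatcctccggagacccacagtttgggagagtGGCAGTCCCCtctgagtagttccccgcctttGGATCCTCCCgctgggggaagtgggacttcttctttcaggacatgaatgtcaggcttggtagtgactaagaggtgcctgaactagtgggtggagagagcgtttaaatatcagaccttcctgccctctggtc
In these windows Ccl17 held 1 match to each STAT palindrome and 0 to the NF-kappaB type motif, and Ccl22 held 2 matches to the NF-kappaB type motif, both on the minus strand, and 0 to the STAT palindromes. Of 32851 RefSeq promoter windows of the same length, 45.8% held the NF-kappaB type motif, 7.02% TTCNNNGAA and 5.85% TTCNNNNGAA. A match is a description of the letters, not of a factor bound there.

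Ccl17 had log2 levels of 6.74, 7.23, 7.64, 7.20 and 7.29 in SCID tumours, against 7.89, 7.52, 7.61, 8.36 and 9.92 in WT tumours. SCID tumour 3 lay above WT tumours 2 and 3, and WT tumour 5 stood far above all others, with 948 probe counts against 99 to 300 in the other 9 tumours. The mean was 7.22 ± 0.32 (SD, n = 5) in SCID tumours and 8.44 ± 1.04 (SD, n = 4) in WT tumours, and the difference of -1.22 (95% interval -2.15 to -0.28) was not called (limma adjusted p = 0.0769). Without WT tumour 5 it was -0.72 (adjusted p = 0.116), and without the mean of WT tumours 2 and 3 it was called (-1.51, adjusted p = 0.0479).

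Ccl22 had log2 levels of 4.70, 5.59, 5.79, 5.50 and 6.37 in SCID tumours, against 6.39, 5.61, 5.88, 6.32 and 8.26 in WT tumours. WT tumour 5 was again the highest sample, with 300 probe counts against 24 to 79 in the other 9 tumours, and the remaining values of the groups overlapped. The mean was 5.59 ± 0.60 (SD, n = 5) in SCID tumours and 6.68 ± 1.10 (SD, n = 4) in WT tumours, a difference of -1.09 (95% interval -2.17 to -0.01) that was not called (limma adjusted p = 0.152). Without WT tumour 5 it was -0.56 (adjusted p = 0.356). WT tumour 5 held the highest value of all samples for 6 of the 10 members (Itgax, Flt3, Cd209e, Ccl17, Ccl22 and Ccr7). Of these, Cd209e was below background there and Flt3 barely above it (37 counts). Of all samples, WT tumour 5 also had the most genes above background (569), and how many of all genes peaked in it was not counted. In it the summed level of 13 T cell genes was 690 normalized counts, against 419 to 513 in the other WT tumours, that of 9 pan-leukocyte genes 2914, against 1423 to 1914, and that of 15 macrophage and monocyte genes 8338, against 5345 to 7024. The part of these cells in the 2 chemokine levels was not tested. Both genes were also taken as a log2 difference from the mean of the pan-leukocyte genes. On that scale Ccl17 in WT tumour 5 was still the highest of the 10 tumours (2.34). SCID tumour 3 came next for Ccl17, above WT tumour 4 (1.42). Ccl22 was likewise highest in WT tumour 5 (0.68, against -1.19 to -0.34 in the other tumours).

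**Figure D3:**
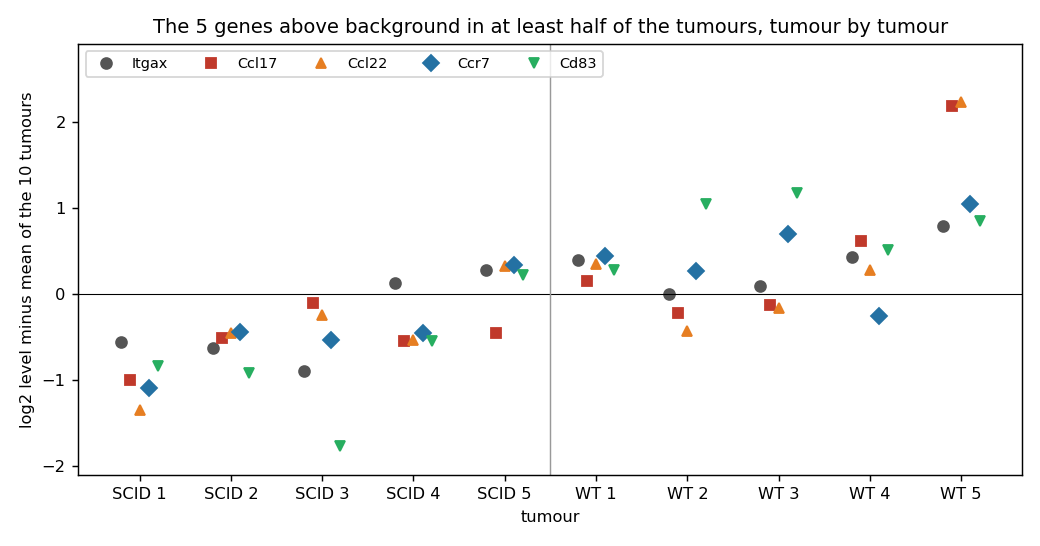
Log2 level of the 5 genes above background in at least 50% of the tumours, as the difference from each gene's mean over the 10 tumours. Ccl17 and Ccl22 both peak in WT tumour 5, while Cd83 is highest in WT tumours 2 and 3 and lowest in SCID tumour 3.

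Likeness between genes was measured as the root mean square difference of their log2 levels over 9 tumour samples (WT tumours 2 and 3 averaged) after centring each gene, among 490 other genes above background in at least 50% of the tumours. Ccl17 and Ccl22 were closer to each other (0.32) than to any of these. The next nearest to Ccl17 were Selplg, a selectin ligand of leukocytes (0.37), and H2-DMa, a chaperone of MHC class II loading (0.42). For Ccl22 they were H2-DMa (0.33) and the MHC class II chain H2-Aa (0.34). Itgax was nearest to Itgal, the alpha chain of the leukocyte integrin LFA-1 (0.15), and Ctsw, a cathepsin of cytotoxic lymphocytes (0.21). Ccr7 was nearest to Ncf4, a subunit of the phagocyte oxidase (0.25), and Ptprc, the pan-leukocyte antigen CD45 (0.25). Cd83 was nearest to Il1b, an inflammatory cytokine (0.34), and Cd3d, which encodes part of CD3 on T cells (0.36), at distances larger than those of Itgax and Ccr7. These distances are not scaled by a gene's own spread. The root mean square of Cd83 about its mean was 0.89, against 0.53 for Itgax and 0.63 for Ccr7. All values share the same samples and scaling, so these distances are descriptions.

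Flt3 and Xcr1, the members that mark conventional dendritic cells most specifically, were at or near background, as was Cd209e. Flt3 gave 20, 19, 24, 16 and 22 probe counts in SCID tumours, against 21, 20, 25, 25 and 37 in WT tumours, and only WT tumour 5 passed its background. The difference on the log2 scale was -0.46 (95% interval -0.93 to 0.00, limma adjusted p = 0.158), and it turned to 0.14 after scaling to the median of all genes and to 0.35 after scaling on the pan-leukocyte genes. Xcr1 gave 21, 29, 18, 17 and 26 counts in SCID tumours, against 24, 17, 20, 18 and 29 in WT tumours, with 21 and 12 in the line. Its SCID and WT values overlapped throughout (difference -0.12, 95% interval -0.63 to 0.39, adjusted p = 0.768; 0.20, 0.49 and 0.69 under TMM, median and pan-leukocyte scaling). Cd209e, a member of the mouse DC-SIGN family of lectins, gave 12 to 24 counts in SCID tumours, against 18 to 33 in WT tumours and 15 to 17 in the line (difference -0.45, adjusted p = 0.216; 0.16 and 0.36 under median and pan-leukocyte scaling). A lower background, the 95th percentile of 9 B cell genes in SCID tumours, was 23 counts. Above that level were 4 of 10 tumours for Flt3, 4 for Xcr1 and 2 for Cd209e. Whether these genes passed in a tumour thus depended on the level taken as background, and no firm detection is claimed at this depth.

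Lamp3, a lysosomal membrane protein of mature dendritic cells, differed in the other direction but below background. It gave 12, 11, 18, 22 and 11 probe counts in SCID tumours, against 8, 15, 6, 6 and 8 in WT tumours, and 11 in each line sample. The log2 difference was 0.77 (95% interval 0.21 to 1.32) and was not called (limma adjusted p = 0.0637). It was called without WT tumour 2 (adjusted p = 0.0193) and without SCID tumour 2 (adjusted p = 0.0463), and under median, TMM and pan-leukocyte scaling (1.37, 1.04 and 1.57, adjusted p = 0.0102, 0.0223 and 0.0171). With values raised to background it was -0.10 (adjusted p = 0.494). All 12 counts were at most 22, under the 23 counts of the lower background, so no fold is given.

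Cd207 encodes langerin, the lectin of epidermal Langerhans cells and of some dermal dendritic cells. It gave 36, 30, 37, 33 and 8 counts in SCID tumours 1 to 5, against 12, 34, 33, 22 and 33 in WT tumours 1 to 5, and 10 and 13 in the line. In SCID tumour 5 the count of 8 had an exact 95% Poisson interval of 3.45 to 15.8, and in WT tumour 1 the count of 12 one of 6.20 to 21.0, while the other 8 tumours had intervals between 13.8 and 51.0. These intervals cover counting error only. SCID tumour 5 and WT tumour 1 were thus at the line's level, and SCID tumours 1 and 3 were above background. Above the lower level of 23 counts were 7 of 10 tumours, 4 of them SCID and 3 WT. The host groups did not differ measurably (difference 0.024, 95% interval -0.98 to 1.03, limma adjusted p = 0.975), and the sign of this value changed with small changes of processing. Epcam, an adhesion molecule of epithelial and carcinoma cells that Langerhans cells also carry, was lowest in the same tumours, at 7.55 in SCID tumour 5 (10.33 to 11.74 in the other SCID tumours) and 9.80 in WT tumour 1 (11.92 to 12.78 in the other WT tumours). Epcam lay at 8.78 and 8.80 in the line, so its tumour signal need not come from Langerhans cells, and the source was not tested.

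**Figure D4:**
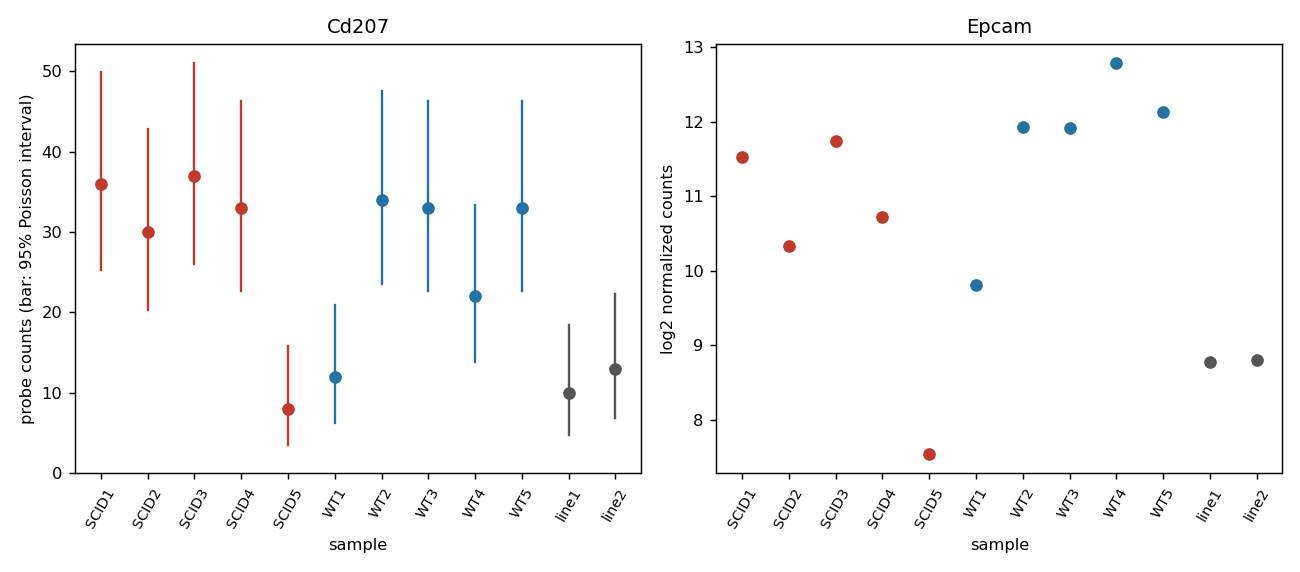
Left, recovered probe counts of Cd207 with exact 95% Poisson intervals, and right, log2 normalized counts of Epcam, in SCID tumours (red), WT tumours (blue) and the line (grey). SCID tumour 5 (8 counts) and WT tumour 1 (12 counts) lie at the line's Cd207 level of 10 and 13, and are also lowest in Epcam within their groups.

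Against the cultured line, all 5 detected members were higher in tumours of both hosts. These 5 were picked for signal in tumours, and 4 of them were at background in the line, so this direction was partly built in. These comparisons share the line samples, and most of the panel moved the same way: 51.6% of genes were called higher in SCID tumours and 67.1% in WT tumours, against 10 and 9 of the 10 members, while 2.8% and 2.67% of genes were called lower (54.4% and 69.7% in either direction) and 0 members were. In SCID tumours Cd83 was at least 4.07-fold higher than in the line (limma adjusted p = 2.99e-04), Itgax at least 2.24-fold (2.11e-05), Ccl22 at least 1.94-fold (0.00311) and Ccr7 at least 1.72-fold (0.00734), the line being at background for all 4. In WT tumours Cd83 was at least 11.1-fold higher (limma adjusted p = 8.96e-06), Ccl22 at least 4.14-fold (2.85e-04), Itgax at least 3.77-fold (3.09e-06) and Ccr7 at least 3.13-fold (3.07e-04). Cells of the line gave signal for Ccl17 itself, at log2 levels of 5.43 and 5.12 (60 and 50 probe counts), and Ccl17 was 3.86-fold higher in SCID tumours (limma adjusted p = 0.00681) and 8.96-fold higher in WT tumours (adjusted p = 2.56e-04). For each of these 5 genes the mean was highest in WT tumours and lowest in the line, and of the neighbouring WT and SCID levels only those of Cd83 were called different. The line's place in this order was partly built in by the choice of genes, and 81.9% of all genes were lower in SCID than in WT tumours.

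The SCID against line calls of Ccl17, Ccl22 and Ccr7 rested on both line samples. That of Ccl17 was lost without line sample 2 (limma adjusted p = 0.0602), and those of Ccl22 and Ccr7 without line sample 1 (0.0595 and 0.0615). Scaling on the median of all genes turned Ccr7 to a lower level in tumours of both hosts (-0.58 in SCID tumours and -0.31 in WT tumours) and left Cd83 at 0.61 in SCID tumours (adjusted p = 0.127). Ccl17 turned to -0.054 in SCID tumours on that scale, and under pan-leukocyte scaling to -0.72 in SCID tumours and -0.32 in WT tumours. The weak members also passed the threshold against the line in most cases, but 1 probe count was worth 0.922 to 1.35 normalized units in tumours and 0.694 to 0.717 in the line. The background level itself therefore lay at 5.02 to 5.57 on the log2 scale in tumours and at 4.61 to 4.65 in the line. Under TMM scaling none of Flt3, Xcr1, Cd209e, Lamp3 and Cd207 was called higher in either host.

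The partners of the members were measured on the same panel, in a list chosen with earlier results of these data known. Of 9 ligands, receptors and growth factor genes that act with the members, 5 were called lower in SCID tumours, 0 higher and 4 were not called, beside 15.7% of all genes called lower. Their median difference was -0.93 on the log2 scale. Csf2rb, the shared receptor chain through which the dendritic cell growth factor GM-CSF acts, had log2 levels of 6.36, 7.22, 7.17, 7.28 and 7.55 in SCID tumours, against 8.21, 8.52, 8.53, 8.20 and 8.45 in WT tumours. The groups did not overlap, and Csf2rb fell by 1.23 on the log2 scale (SE 0.23, limma adjusted p = 0.00637). It was not called under median scaling (-0.63, adjusted p = 0.0577) or pan-leukocyte scaling (-0.42, adjusted p = 0.204). Csf2, which encodes GM-CSF, fell by 0.93 (SE 0.27, adjusted p = 0.0446), a call that did not survive leaving out WT tumour 1, 4 or 5, SCID tumour 2 or 4, or the averaged pair (adjusted p between 0.0657 and 0.0989), nor any of the other scalings (0.0614 to 0.761).

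Of the 2 chemokines that bind Ccr7, Ccl19 fell and Ccl21a was not called. Ccl19 had log2 levels of 4.57, 4.21, 4.79, 5.18 and 4.86 in SCID tumours, against 5.51, 6.44, 6.47, 5.30 and 5.99 in WT tumours, and fell by 1.09 (SE 0.27, limma adjusted p = 0.0218). This call was lost without WT tumour 5 (adjusted p = 0.0694) and without the mean of WT tumours 2 and 3 (0.0566), and under median, pan-leukocyte and TMM scaling (0.204, 0.516 and 0.082). Ccl19 passed background in 1 of 5 SCID tumours, and with values raised to background it was not called (-0.64, adjusted p = 0.102). Ccl21a, made by lymphatic endothelium and lymphoid stroma, ranged from 6.94 to 10.19 in SCID tumours and from 9.20 to 10.09 in WT tumours (difference -1.23, SE 0.56, adjusted p = 0.162), and it was called without SCID tumour 5 (-1.67, adjusted p = 0.0252). Xcl1, the ligand of Xcr1 made by NK cells and activated T cells, passed background in 0 of 5 SCID tumours and in 4 of 5 WT tumours, with 23 to 35 counts in SCID tumours and 35 to 148 in WT tumours (limma adjusted p = 0.0191, 0.0724 with values raised to background, and 0.0703 and 0.136 under median and pan-leukocyte scaling). Ccr4, the receptor of Ccl17 and Ccl22, was called (adjusted p = 0.0343) with both groups at background, at 11 to 14 counts in SCID tumours and 14 to 22 in WT tumours, and it turned to 0.042 and 0.25 under median and pan-leukocyte scaling. That call was lost under each other scaling (adjusted p between 0.066 and 0.891), and without WT tumour 5, without any 1 of SCID tumours 1 to 4 or without the averaged pair (between 0.0501 and 0.111). The growth factor Flt3l was at background in all tumours (difference -0.28, adjusted p = 0.426; 0.042, 0.32 and 0.53 under TMM, median and pan-leukocyte scaling). The integrin chain Itgb2, which pairs with CD11c, had a difference of -0.81 (adjusted p = 0.0672, and 0.0467 without SCID tumour 5), and the related alpha chain Itgam one of -0.45 (adjusted p = 0.135), which turned to 0.16 and 0.36 under median and pan-leukocyte scaling.

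Among 20 genes of maturation, costimulation and dendritic cell cytokines, 5 were called lower in SCID tumours, 0 higher and 15 were not called, beside 15.7% of all genes called lower. The largest differences were those of Ccl5, a chemokine for T cells (-1.86, SE 0.45, limma adjusted p = 0.02), Pdcd1lg2, which encodes the PD-1 ligand PD-L2 (-1.49, SE 0.30, adjusted p = 0.00782), and Il15, a cytokine for NK and memory T cells (-0.98, SE 0.21, adjusted p = 0.013). Pdcd1lg2 was at 5.02, 4.93, 5.27, 5.76 and 6.16 in SCID tumours, against 6.64, 7.18, 6.99, 6.52 and 7.45 in WT tumours, with no overlap. Il15 passed background in 0 of 5 SCID tumours and in 2 of 5 WT tumours. Scaled on the pan-leukocyte genes, Pdcd1lg2 and Il15 were no longer called (adjusted p = 0.0756 and 0.722), and Il15 was not called under median or TMM scaling or with values raised to background either (0.338, 0.114 and 0.464). Of 20 genes of subset identity and pattern recognition, 2 were called lower, 0 higher and 18 were not called, a share below that of all genes. The called genes were Ikzf1, a transcription factor of lymphoid and dendritic cell development (-1.17, SE 0.27, adjusted p = 0.0169, and 0.0586 without WT tumour 5), which passed background in 0 of 5 SCID tumours, and Bst2, an interferon-induced membrane protein abundant on plasmacytoid dendritic cells (-1.16, SE 0.23, adjusted p = 0.00744). Bst2 was also at 8.04 and 8.18 on the log2 scale in the line. Neither was called under median scaling (0.113 for Ikzf1 and 0.0675 for Bst2) or pan-leukocyte scaling (0.290 and 0.296), nor Ikzf1 under TMM scaling (0.0577) or with values raised to background (-0.34, adjusted p = 0.117). Ikzf1 is itself 1 of the 9 pan-leukocyte genes, so the loss of its call on that scale was partly built in. Epcam had the largest difference of this list without a call (-1.29, SE 0.85, adjusted p = 0.325).

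The differences between the hosts depended on what the samples were scaled on. With the 9 pan-leukocyte genes as the scale, the SCID minus WT differences of Ccl17, Ccl22, Ccr7 and Cd83 were -0.41, -0.28, -0.056 and -0.65, and 0 of the 10 members were called lower. Lamp3 was the 1 member called higher on that scale, at counts below background. Among markers of other cells, 9 of 13 T cell genes and 2 of 6 NK cell genes were called lower in SCID tumours, beside 15.7% of all genes. The counts were near or below that share for the other lists. They were 1 of 9 B cell genes, 1 of 6 neutrophil genes, 1 of 15 macrophage and monocyte genes and 0 of 5 fibroblast genes. Of a skin list only Cdh1 and Epcam were measured, and 0 of these 2 were called. Both gave signal in the line, so they do not measure skin content. The summed level of the T cell genes was 200 to 295 normalized counts in SCID tumours and 419 to 690 in WT tumours, against 164 to 185 in the line, and that of the macrophage and monocyte genes 3102 to 6059 in SCID tumours and 5345 to 8338 in WT tumours. The summed level of the NK cell genes did not follow the host, at 890, 1132, 920, 506 and 440 normalized counts in SCID tumours 1 to 5 and 556 to 707 in WT tumours. The part of these cells in the levels of Cd83, Ccr7, Ccl17 and Ccl22 was not tested.

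**Figure D5:**
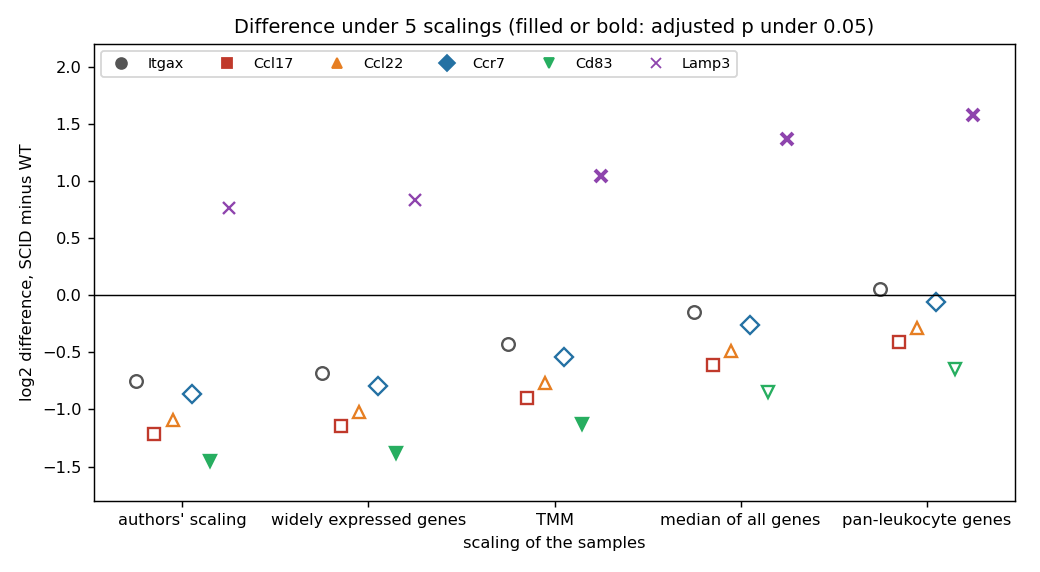
SCID minus WT difference in log2 level of the 5 detected genes and Lamp3 under 5 ways of scaling the samples; filled or bold symbols have an adjusted p under 0.05. Cd83 is called under 3 of the scalings (-1.45 as deposited) and not after scaling to the median of all genes (-0.85) or on the pan-leukocyte genes (-0.65), where Itgax is at 0.058.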

How the data were processed

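Total RNA was extracted with the PureLink RNA Mini Kit and checked on the Agilent BioAnalyzer, per the labels' protocols. The authors deposited log2 values of 750 genes and a table of linear signal for 749 of them, whose log2 matched within 5.4e-09. How they normalized is not given in these sources. Signal values were whole multiples of 1 step per sample (100% within 0.02 counts), and dividing by the step gave probe counts, which totalled 368925 to 558445 per sample. No sample columns outside the series were present. Tests used limma 3.58.1 (lmFit and eBayes, two-sided) on the deposited log2 values, for SCID against WT tumours alone and for tumours against the line in 1 fit over 3 groups, with no filter or pseudocount. A fold against a group wholly at background is a bound from the larger of its background level and value. The scaling list of 58 widely expressed genes, the background level and the averaging of WT tumours 2 and 3 were chosen with values seen. The members and lists were chosen with earlier results of these data known. All 10 members are described. Other genes named were, by rule, the 9 measured partners, the 3 largest changes of each other list, and the 2 nearest profiles of each detected member. Scripts were tested on simulated data. Same-numbered SCID and WT tumours did not deviate together (correlations -0.41 to 0.24), and the main tests did not pair them. With 5 numbers, this check cannot exclude a shared batch.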

Additional observations from a re-analysis of the deposited data

Results flagged for a closer look

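Cd207 in SCID tumour 5, at 3.28 on the log2 scale, lay far below the other 4 SCID tumours (4.79 to 5.28). Its gap to the nearest of them was 0.756 of the group's range, above Dixon's 95% critical value of 0.71. Chance flags about 1 in 20 such groups, and 1 of the 20 groups of the members tested here was flagged.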

How the results depend on the processing

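Of 10 members, 1 was called lower in SCID than in WT tumours, and the count ranged from 0 to 3 when each tumour was left out in turn. It was 0 after scaling to the median of all genes or on pan-leukocyte genes (1 and 0 at an unadjusted limma p under 0.05, with 1 member, Lamp3, called higher in each). It was 0 in the exact permutation test, where 4 members were lower at an unadjusted p under 0.05. In that test 215 of 750 genes passed this level in either direction. The smallest adjusted p was 0.0676 over all genes, so no gene was called. The count of members called lower was 3 in the replicate block. It was also 3 using just tumours of the larger series of bracketed title numbers (WT tumours 1, 3, 4 and 5, SCID tumours 1 to 4). It was 4 without WT tumour 1 and SCID tumour 5, an alternative chosen after the data were seen. No label says that replicate numbers pair samples, and the block's extra calls were Itgax and Ccr7. Against the line, counts of members called higher in WT tumours (9) became 3 with median, 0 with pan-leukocyte and 5 with TMM scaling, and 7 to 9 with a sample left out. In SCID tumours (10) they became 1, 0 and 4, 6 with the filter on low values, under which fewer members were tested, and 4 to 10 with a sample left out. Over all genes, SCID against WT gave 118 calls lower and 1 higher as deposited, 37 and 49 with median, 21 and 78 with pan-leukocyte and 56 and 8 with TMM scaling, with medians of all genes of 0.28, 0.48 and -0.01. The cause was not tested.

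Signs turned for SCID against WT under pan-leukocyte scaling in Itgax (0.058), Flt3 (0.35), Xcr1 (0.69), Cd209e (0.36), Flt3l (0.53), Ccr4 (0.25) and Itgam (0.36), under median scaling in Flt3 (0.14), Xcr1 (0.49), Cd209e (0.16), Flt3l (0.32), Ccr4 (0.042) and Itgam (0.16), and under TMM in Xcr1 (0.20) and Flt3l (0.042). With values raised to background Lamp3 was at -0.10 and Cd207 at -0.081. Cd207 was at -0.11 with WT tumours 2 and 3 apart and in the replicate block, -0.12 with the bracketed title number as a random block, and -0.31 to 0.38 with a tumour left out. For WT tumours against the line, median scaling gave Flt3 -1.16, Xcr1 -1.50, Cd209e -1.44, Ccr7 -0.31, Lamp3 -2.47 and Cd207 -0.94, and pan-leukocyte scaling Flt3 -2.03, Xcr1 -2.37, Cd209e -2.31, Ccl17 -0.32, Ccr7 -1.19, Lamp3 -3.34 and Cd207 -1.81. Lamp3 was at -0.071 on widely expressed genes, -0.87 with TMM and -0.063 to 0.34 with a sample left out. For SCID tumours against the line, median scaling gave Flt3 -1.02, Xcr1 -1.01, Cd209e -1.28, Ccl17 -0.054, Ccr7 -0.58, Lamp3 -1.10 and Cd207 -0.31, and pan-leukocyte scaling Flt3 -1.69, Xcr1 -1.68, Cd209e -1.95, Ccl17 -0.72, Ccr7 -1.24, Lamp3 -1.77, Cd83 -0.064 and Cd207 -0.98. The line holds almost no leukocyte signal, so pan-leukocyte scaling there sets members against a list that itself rises. A count model on the recovered counts was not run. Members below background are limited by depth.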
